A study of Mus musculus with 2 samples.

Results

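Glo1 and its neighbour Btbd9 are 2 of the 31053 genes in the single-cell expression matrix of this mouse retina series. They were followed across 834 cell barcodes. The genes were selected on measured values: Glo1 was among the genes with the largest ratio of tag 3 over the other tags in rods, and Btbd9 lies beside it. The values of that comparison are therefore a description, without a test.

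Glo1 encodes glyoxalase I, the first enzyme of the glyoxalase system. It acts on the adduct of glutathione and methylglyoxal, a reactive by-product of glycolysis. The product is passed to the second enzyme, encoded by Hagh, which releases lactate. Photoreceptors run a high rate of glycolysis, which is the route on which methylglyoxal forms. Btbd9 encodes a BTB-domain protein of the family that binds the scaffold Cul3 of ubiquitin ligases, and it is known for an association with restless legs syndrome. In laboratory mice a stretch of chromosome 17 that holds Glo1 is duplicated in some strains and not in others, so the number of Glo1 copies can differ between animals.

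Newborn wild-type mouse retinas had been electroporated with the pCIG2 plasmid, which carries EGFP behind an internal ribosome entry site, either alone as control or with lamin A (LA) or the lamin B receptor (Lbr). Viable EGFP-positive cells of the adult retinas were sorted, each condition was stained with its own lipid-anchored oligonucleotide, and all were run as 1 pool on the 10x Chromium platform. The labels do not pair the 3 oligonucleotides with the 3 conditions, so the pools are called tag 1, tag 2 and tag 3 here. The methods list CD1, an outbred stock, and C57BL/6J among the mice of the study without saying which was used for this experiment, and the number of mice in a pool was not given. With a single pool behind every tag, the tags could not be tested against each other.

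The tags were told apart by the following 8 bases, which are shown in capitals throughout because the whole stretch marks the pool.
Tag 1: GGAGAAGA
Tag 2: CCACAATG
Tag 3: TGAGACCT
In the deposited calls 264 barcodes carried tag 1, 316 carried tag 2 and 41 carried tag 3. The calls doublet, negative and unmapped covered 22, 1 and 1 barcodes, while the tag matrix lacked the remaining 189 barcodes. The methods give a number of rods per condition after quality control, and those numbers equal the totals of called barcodes of any class, not the smaller numbers that the stated filter left here. Equal totals are no label, so they were not used to give a tag its condition.

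Rods were taken as the cells that passed the study's stated filter, were not called doublets by Scrublet and fell into the cluster led by rod markers. These were 191 rods of tag 1, 128 of tag 2 and 21 of tag 3, with 564951, 328334 and 59821 unique molecular identifiers (UMIs, each meant to stand for 1 captured transcript) in all. The median rod held 2825, 2602.5 and 2579 UMIs in tags 1, 2 and 3. All 12 rod markers were present in each tag, and the share of rods with at least 3 of them was 97.9%, 99.2% and 100%. The tag 3 pool was the least cleanly marked, since the median share of tag counts that came from the rod's own tag was 77.9% in tag 3 against 82.9% in tag 1 and 82.2% in tag 2.

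In the GENCODE M21 annotation of mouse build GRCm38 (mm10), Glo1 (ENSMUSG00000024026) runs on the minus strand of chromosome 17 from 30584936 to 30626871. Btbd9 (ENSMUSG00000062202) lies on the same strand from 30215524 to 30576488, and 8447 bases separate them. Some other annotated genes overlap Glo1. The minus-strand noncoding RNA 1700097N02Rik and the plus-strand Dnah8 are in the expression matrix, and both had 0 UMIs in the rods of all 3 tags. Gm13443, a processed pseudogene on chromosome 2, matched the Glo1 transcript at 96.0% of 575 bases. It has no row in the matrix, so how reads that match both were counted is uncertain.

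Glo1 was detected in about the same share of rods in tags 1 and 2 and in a larger share in tag 3. A Glo1 UMI was found in 62 rods of tag 1 (32.5%, exact 95% interval 25.9 to 39.6), 43 of tag 2 (33.6%, 25.5 to 42.5) and 16 of tag 3 (76.2%, 52.8 to 91.8). These are Clopper-Pearson intervals. Every interval given here describes counting error alone, because no second pool of any tag was at hand to measure how animals vary.

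The single rods show how the UMIs were spread. In tag 1 the lowest, median and highest rods held 0, 0 and 17 Glo1 UMIs, and in tag 2 they held 0, 0 and 16. In tag 3 the lowest rod held 0, the median rod 4 and the highest 22. The 16 positive rods of tag 3 comprised 2 with 1 UMI, 1 with 3, 4 with 4 and 2 with 5, and the remaining ones held 6, 9, 10, 11, 12, 19 and 22. The 3 ranges overlapped, while rods without any Glo1 UMI made up most of tags 1 and 2 and 5 of the 21 rods of tag 3.

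**Figure D1:**
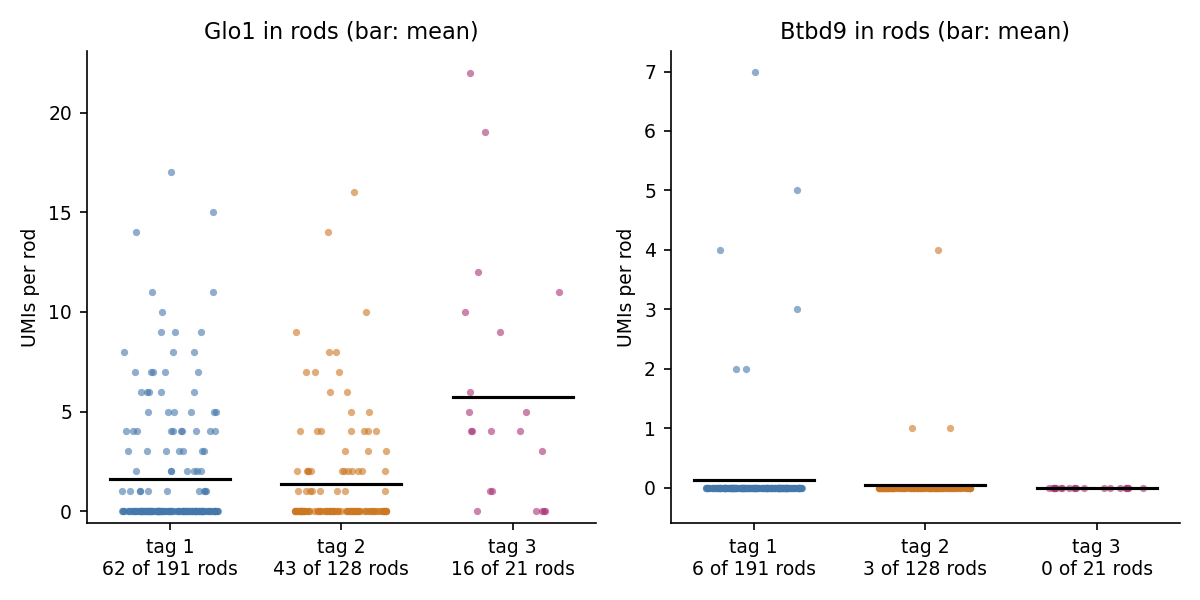
UMIs per rod of Glo1 (left) and Btbd9 (right) in the rods of tags 1, 2 and 3; each point is 1 rod, shifted sideways at random, and the black bar is the mean over all rods of the tag. Glo1 reached 17, 16 and 22 UMIs in the highest rod of tags 1, 2 and 3, whereas Btbd9 was found in 6, 3 and 0 rods.

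Glo1 UMIs summed over the rods came to 309, 177 and 120 for tags 1, 2 and 3. Scaled to the total UMIs of the tag's rods as CPM, the usual unit for comparing libraries of unequal depth, these sums were 547 (exact Poisson 95% interval 488 to 611), 539 (463 to 625) and 2006 (1663 to 2399). Tag 3 was thus 3.68-fold above tag 1 (2.95 to 4.54), a log2 ratio of 1.88, and 3.73-fold above tag 2 (2.93 to 4.72), a log2 ratio of 1.90. Tags 2 and 1 did not differ beyond counting error, with a log2 ratio of -0.02 whose interval ran from -0.30 to 0.25. Before each ratio 0.5 UMIs were added to both sums.

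The size of the tag 3 ratio depended on how a cell with several UMIs was counted. With 1 count per gene and cell the log2 ratio was 1.38 over tag 1 and 1.11 over tag 2. Positive rods of tag 3 held a mean of 7.50 Glo1 UMIs, beside 4.98 for tag 1 and 4.12 for tag 2. On the log2 scale, 1.23 of the difference between tags 3 and 1 lay in the share of positive rods and 0.59 in the UMIs per positive rod. Scaling by the median of gene ratios lowered every log2 ratio of tag 3 by 0.29 against tag 1 and by 0.40 against tag 2, and Glo1 then stood at 1.58 and 1.5. Without the rod that held most Glo1 UMIs in each tag the ratios were 1.87 and 1.95.

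Ratios were compared over genes for which 20 or more UMIs were expected in each of the pair. Of 427 such genes, 3.28% were at least 2-fold higher in tag 3 than in tag 1 and 8.43% were at least 2-fold lower. Between tags 3 and 2 the shares were 4.7% higher and 8.42% lower, of 404 genes. Between tags 2 and 1 they were 3.88% higher and 9.38% lower, of 2164 genes. Glo1 was in the higher class in both tag 3 comparisons and in neither class for tags 2 and 1. Since the gene was selected on this contrast, nothing is read from its place. The median log2 ratio over the tested genes was 0.02 for tag 3 over tag 1 and 0.04 for tag 3 over tag 2.

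The difference in share was also present at equal depth. When each rod was thinned to 1200 UMIs, which left 171, 118 and 20 rods, 27.1% of the rods of tag 1 would be expected to hold a Glo1 UMI, beside 28.8% for tag 2 and 67.5% for tag 3. Within a tag, the share of rods with Glo1 was higher in deeper rods. Among the shallowest of 3 depth classes (up to 2253 UMIs) it was 15.9% of 63 rods in tag 1, 18.2% of 44 in tag 2 and 57.1% of 7 in tag 3. Among the deepest (over 3134 UMIs) it was 47.4% of 76, 46.9% of 32 and 100% of 5. Tag 3 had the highest share in each depth class, on few rods. The same rods served to select Glo1, so these shares describe the selected difference and are no separate support for it.

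Other properties of the cells were used to split the rods in the same way. Split at a mitochondrial share of 12.4%, the share with Glo1 was 30.3% and 36.2% in the lower and upper parts of tag 1, 28.6% and 35.5% in tag 2, and 76.9% and 75.0% in tag 3. Among rods whose own tag made up less than 90% of the tag counts it was 31.3%, 30.5% and 77.8% in tags 1, 2 and 3. Among those at 90% or more it was 35.7% of 56 rods in tag 1 and 47.8% of 23 in tag 2, and 2 of only 3 such rods in tag 3 held Glo1. Tag 3 had the highest share in each of these classes of mitochondrial share and tag purity. These are again the rods that served to select Glo1, so the lead of tag 3 is only described. In the finer clustering of the same cells, clusters with at least 10 rods of a tag ranged from 14.3% to 57.1% positive in tag 1 and from 16.7% to 44.4% in tag 2. The 21 rods of tag 3 fell into 8 of these clusters with at most 5 in each, and their Glo1 UMIs were uneven. Cluster 2 held 5 of these rods and 54 of their 120 Glo1 UMIs, or 2996 CPM, and it was at 926 and 1009 CPM in tags 1 and 2. This cluster stayed unnamed. Of the 9 cone markers only Gnb3 was among its leading genes, and only 1 was detected in 25% or more of its cells. In cluster 10 tag 3 was not the highest, with 1 of 3 rods positive at 601 CPM against 3 of 8 at 678 CPM in tag 1. In cluster 8 the single tag 3 rod held 1 UMI, at 447 CPM against 638 CPM in tag 1. The single tag 3 rods in clusters 1 and 4 had no Glo1 UMI.

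Markers of other cells differed between the rod pools as well. The summed level of the 9 cone markers was 2138, 64.0 and 6269 CPM in tags 1, 2 and 3, with 0, 6 and 1 of them at 0. At least 3 cone markers were present in 4 rods of tag 1, 0 of tag 2 and 1 of tag 3. Without those cells the log2 ratio of Glo1 was 1.98 for both tag 3 comparisons. The 10 bipolar markers summed to 119, 21.3 and 100 CPM, with 5, 8 and 9 at 0, and in rods with no bipolar UMI Glo1 was found in 33.9% of 171, 34.1% of 126 and 73.7% of 19. The 5 erythrocyte markers summed to 1579, 146 and 33.4 CPM, with 3, 3 and 4 at 0, and the share of Glo1-positive rods among those without a haemoglobin UMI was 26.9% of 104, 33.3% of 99 and 73.7% of 19. The 12 rod markers themselves summed to 84391, 99036 and 67752 CPM, lowest in tag 3, and the part of this in the Glo1 ratio was not tested.

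Barcodes outside the rods that served to select the genes gave tag 3 a smaller lead over tag 2. Over all of them, of any class, Glo1 was at 323, 644 and 989 CPM, with tag 3 above tag 2 by a log2 ratio of 0.63 (0.23 to 0.98) and above tag 1 by 1.62 (1.18 to 2.04), and tag 2 above tag 1 by 0.99 (0.71 to 1.29). Tag 2 held 29 bipolar-like cells there and tag 3 held 1. The 70 Glo1 UMIs of tag 3 came from 20 barcodes. Of these UMIs, 17 lay in 1 Scrublet doublet and 14 in 1 Müller glia-like barcode. The 4 and 3 Müller glia-like barcodes of tags 1 and 2 had 0 Glo1 UMIs, which allows 799 and 1018 CPM. The observed level of tag 3 was not the highest in each class. Its 1 bipolar-like cell was at 771 CPM (283 to 1679) against 961 CPM in tag 2. Its 3 microglia-like cells had 0 UMIs, which allows 110 CPM, against 147 (30.3 to 430) and 187 CPM (38.5 to 546) in tags 1 and 2. Those came from 3 UMIs in 1 cell of each tag. Neither class settles the order of the tags. The rod-like barcodes that failed the filter had a median mitochondrial share of 22.8%. Glo1 was found in 19 of 51 of them in tag 1 (37.3%, 24.1 to 51.9), 40 of 144 in tag 2 (27.8%, 20.6 to 35.8) and 6 of 11 in tag 3 (54.5%, 23.4 to 83.3). These intervals overlap. Their Glo1 level was 301, 448 and 1151 CPM. Tag 3 exceeded tag 1 by a log2 ratio of 1.96 (1.23 to 2.59) and tag 2 by 1.39 (0.68 to 1.99). Of the 24 Glo1 UMIs in tag 3, 11 came from 1 barcode. Here tag 2 was also above tag 1, by 0.57 (0.21 to 0.94).

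Scrublet had set aside 29 cells as likely doublets. Glo1 was found in 6 of the 16 that carried tag 1, in 3 of 9 with tag 2 and in 3 of 4 with tag 3, at levels of 539, 692 and 1883 CPM. A single cell gave 80.0% of the Glo1 UMIs of the tag 2 doublets, and a single cell gave 65.4% of those of tag 3. Taking every barcode of a tag whatever its class, Glo1 was present in 33.3% of 264, 36.7% of 316 and 65.9% of 41. Tag 3 had the highest share in cells that passed, cells that failed and cells called doublets, although all of them came from the same 3 pools and are no replicates of them.

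**Figure D2:**
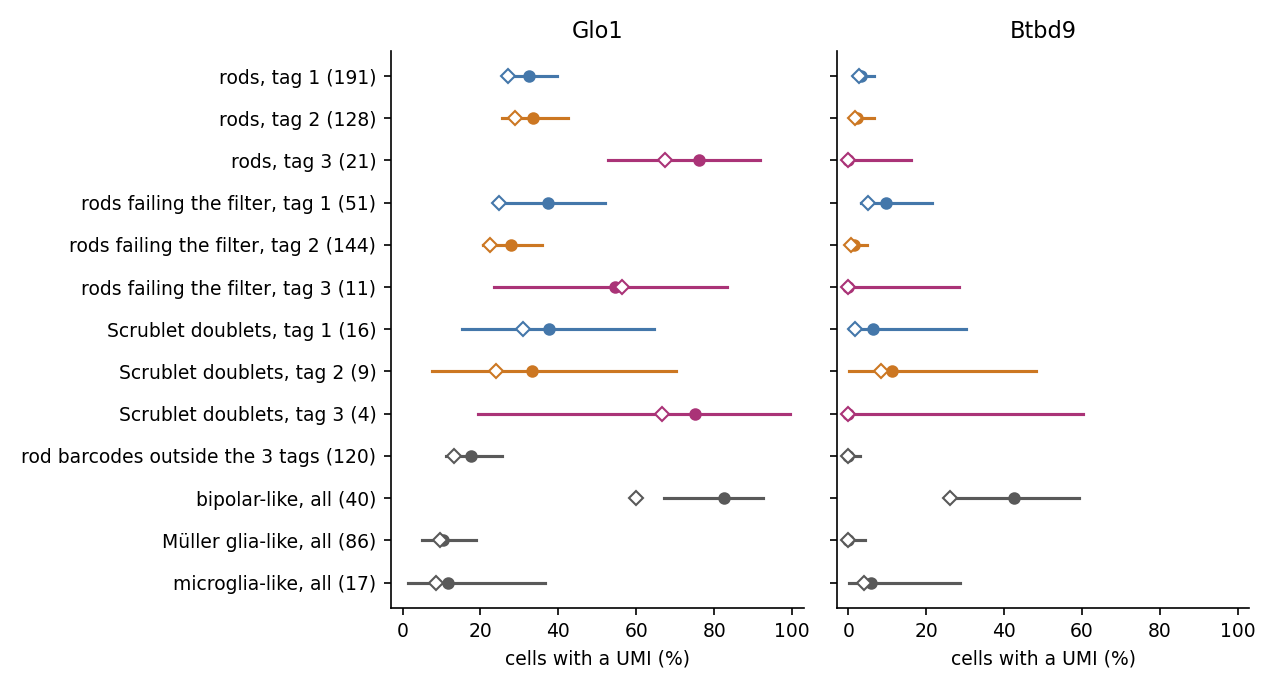
Share of cells with at least 1 UMI of Glo1 (left) and Btbd9 (right) by class of barcode, with the number of cells in brackets; filled points are observed shares with exact 95% intervals, open diamonds are expected shares after thinning to 1200 UMIs per cell, and colours mark the tags. Glo1 stood at 76.2% in rods of tag 3 against 32.5% and 33.6% in tags 1 and 2, and the highest share plotted for Btbd9 is the 42.5% of bipolar-like cells.

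The other cell classes set a scale for these levels. Bipolar-like cells, the interneurons that receive rod and cone signals, held Glo1 in 33 of 40 cells (82.5%) at 983 CPM (878 to 1098). They were deep, with a median of 8783.5 UMIs, and after thinning 60.1% of 36 would hold it. Of the 40, 29 carried tag 2, and all 29 held Glo1, at 961 CPM against 539 CPM in the rods of the same tag. Müller glia-like barcodes held Glo1 in 9 of 86 (10.5%, 4.90 to 18.9) and microglia-like barcodes in 2 of 17 (11.8%, 1.46 to 36.4), at median depths of 1174 and 3372 UMIs. Thinned, these shares were 9.73% of 38 and 8.63% of 11, below the 27.1% of the rods of tag 1. Unlike those rods, both classes were taken without the filter. The Müller glia-like barcodes had a median mitochondrial share of 50.4%, and 78 of the 86 lay outside the tags. Rod-like barcodes that failed the filter had a thinned share of 22.06% over all of them and 11.99% outside the tags. Whether cell class or barcode quality set the low Müller glia-like share was not tested. The enzyme is widely expressed and no class that should lack it was at hand, so the part played by free RNA was not tested.

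Btbd9 was rarely captured in rods. It had 23 UMIs in 6 rods of tag 1 (3.14%, 1.16 to 6.71), 6 UMIs in 3 rods of tag 2 (2.34%, 0.49 to 6.70) and none in tag 3. The positive rods held 2, 2, 3, 4, 5 and 7 UMIs in tag 1 and 1, 1 and 4 in tag 2. Its level was 40.7 CPM in tag 1 (25.8 to 61.1) and 18.3 CPM in tag 2 (6.71 to 39.8). Tag 2 stood at a log2 ratio of -1.07 to tag 1, with an interval from -2.74 to 0.18 that includes equal levels.

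A count of 0 in tag 3 allowed up to 3 UMIs, which is 50.1 CPM or 14.3% of its 21 rods. This limit lies above the values of both other tags, so a difference in Btbd9 between tag 3 and the other tags was not detectable at this depth. Over all 41 barcodes of tag 3, of any class, Btbd9 also had 0 UMIs, which allows 23.0 CPM. The 264 barcodes of tag 1 held 50 UMIs in 12 of them, or 51.0 CPM (37.9 to 67.3), and the 316 of tag 2 held 107 in 22, or 106 CPM (86.7 to 128). On this wider base the limit in CPM lay below both other tags. As a share of barcodes the limit was 7.32%, above the 4.55% of tag 1 and the 6.96% of tag 2. The mix of cell classes also differed, with 29 bipolar-like cells in tag 2 and 1 in tag 3.

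Outside rods, Btbd9 was seen mainly in bipolar-like cells. It had 102 UMIs in 17 of 40 of them (42.5%, 27.0 to 59.1), at 315 CPM (257 to 383). In tag 2 it was found in 16 of 29, and the thinned share was 30.1%. Müller glia-like barcodes had 0 UMIs in 86, which allows 21.4 CPM, and microglia-like barcodes had 2 UMIs in 1 of 17. In rods that failed the filter Btbd9 was found in 5 of 51 in tag 1 (9.80%), 2 of 144 in tag 2 (1.39%) and 0 of 11 in tag 3. Their sums were 2 UMIs in tag 2 against 26 in tag 1, a log2 ratio of -3.47. Over all passing cells of any type that ratio was 1.24, so its sign depended on which cells were counted.

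Glo1 and Btbd9 were seen together in 5 rods. Of the 9 rods with Btbd9 in the 3 tags, 55.6% also held Glo1, and 121 of all 340 rods held Glo1. The product of the shares in all 340 rods would give 3.20 rods with both. Rods with Btbd9 had a median of 2906 UMIs and those with Glo1 3075, against 2702 over all rods. Among bipolar-like cells 16 of 17 with Btbd9 also held Glo1, where the product of shares would give 14.0. Both numbers lie within 2 cells of what the shares alone would give.

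UMIs of both genes were grouped in few cells. If the Glo1 UMIs of tag 1 had been spread at random over its rods, 80.2% of rods would have held at least 1, and 32.5% did. The figures were 74.9% and 33.6% in tag 2 and 99.7% and 76.2% in tag 3. The variance of Glo1 UMIs per rod was 5.93, 5.58 and 6.70 times the mean in tags 1, 2 and 3. Intervals on sums of UMIs and on ratios, which take UMIs as independent, are therefore too narrow.

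Grouping of this kind was general in the matrix. Among 110 genes with 248 to 378 UMIs in the rods of tag 1, the median share of positive rods was 40.3%, and 11 had a smaller share than Glo1. Among 107 genes of like level in tag 2 the median was 36.7%, and among 44 in tag 3 it was 73.8%. The median variance over mean was 4.87, 4.33 and 6.89 in these genes. In tag 3 Glo1 lay near the middle, with 22 of 44 like genes below it in share. For Btbd9 in tag 1, 965 genes of 19 to 28 UMIs had a median share of 4.19%, close to its 3.14%.

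**Figure D3:**
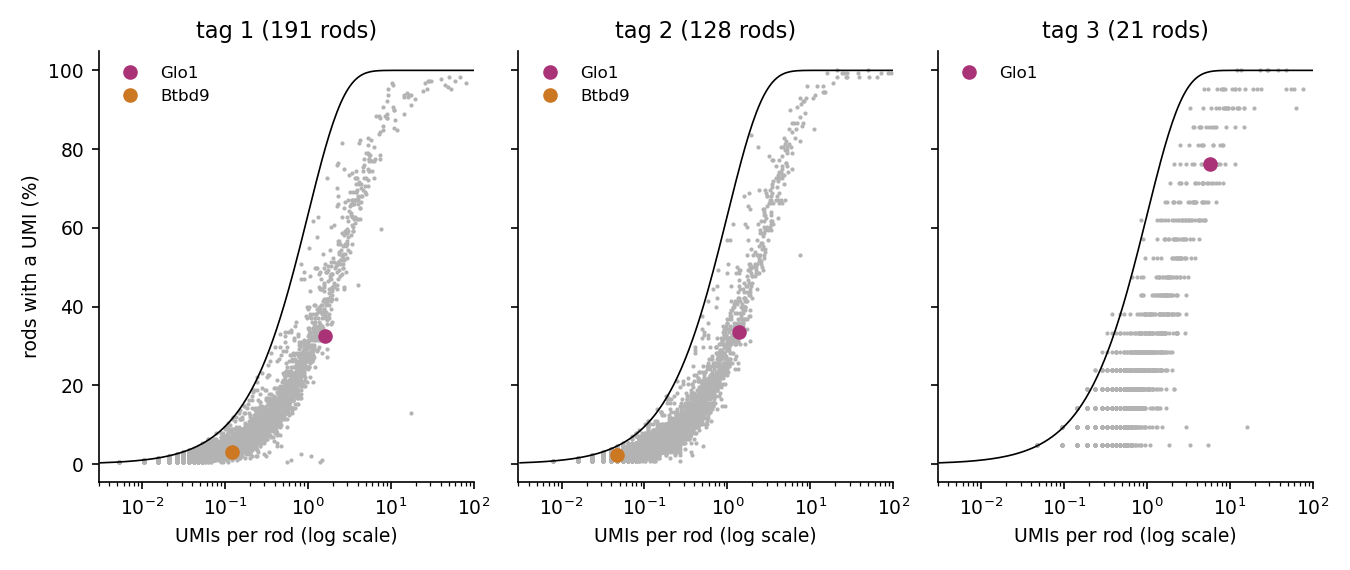
Share of rods with a UMI against the mean UMIs per rod (log scale) for all genes of the matrix with a UMI (grey), in 1 panel per tag, with Glo1 and Btbd9 marked; the black line is the share that randomly spread UMIs would give. Most genes lie below the line in each panel, Glo1 lies at 32.5%, 33.6% and 76.2%, and Btbd9 is absent from the tag 3 panel because it had 0 UMIs.

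The genes around Glo1 were looked at to see whether others differed with it. Of 73 annotated genes that reach within 1 Mb, 29 were in the matrix. Of the 27 apart from the 2 members, 18 had 0 UMIs in the rods of all 3 tags, among them Glp1r, the receptor for glucagon-like peptide 1, and Dnah8, a sperm dynein heavy chain. The other 9 had at least 1 UMI. Only Ndufv3 reached 20 expected UMIs in any pair of tags.

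Ndufv3, a subunit of respiratory complex I, starts 893 kb from the start of Glo1. Its 514 UMIs in tag 1 lay in 86 rods, its 196 in tag 2 in 43 and its 61 in tag 3 in 7, and its levels were 910, 597 and 1020 CPM. The share of positive rods was 45.0%, 33.6% and 33.3%, so tag 3 was not above the others in share. On the log2 scale tag 3 exceeded tag 1 by 0.17 (-0.24 to 0.55) and tag 2 by 0.78 (0.33 to 1.19), and tag 2 stood at -0.61 to tag 1 (-0.85 to -0.37). Among rods that failed the filter 54.5% of tag 3, 41.2% of tag 1 and 23.6% of tag 2 held it, at 1487, 404 and 381 CPM. The ratio of tags 3 and 1 in those barcodes was 1.90 on the log2 scale, close to the 1.96 of Glo1 there, on 11 barcodes of tag 3.

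The lower neighbours held few UMIs. Abcg1, a cholesterol exporter, was at 21.2 CPM in tag 1 and 91.4 CPM in tag 2, from 12 and 30 UMIs. Ccdc167 was at 30.1 and 18.3 CPM, from 17 and 6 UMIs. Both had 0 UMIs in tag 3, where up to 50.1 CPM is allowed, a limit below the tag 2 level of Abcg1 and above the other values. As a share of rods the limit of tag 3 was 14.3%, above the 7.03% of tag 2 rods with Abcg1. Without Glo1 and Btbd9, the genes of the window had 578, 241 and 62 UMIs for tags 1, 2 and 3, most of them from Ndufv3. A difference between animals in the number of Glo1 copies was not tested.

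**Figure D4:**
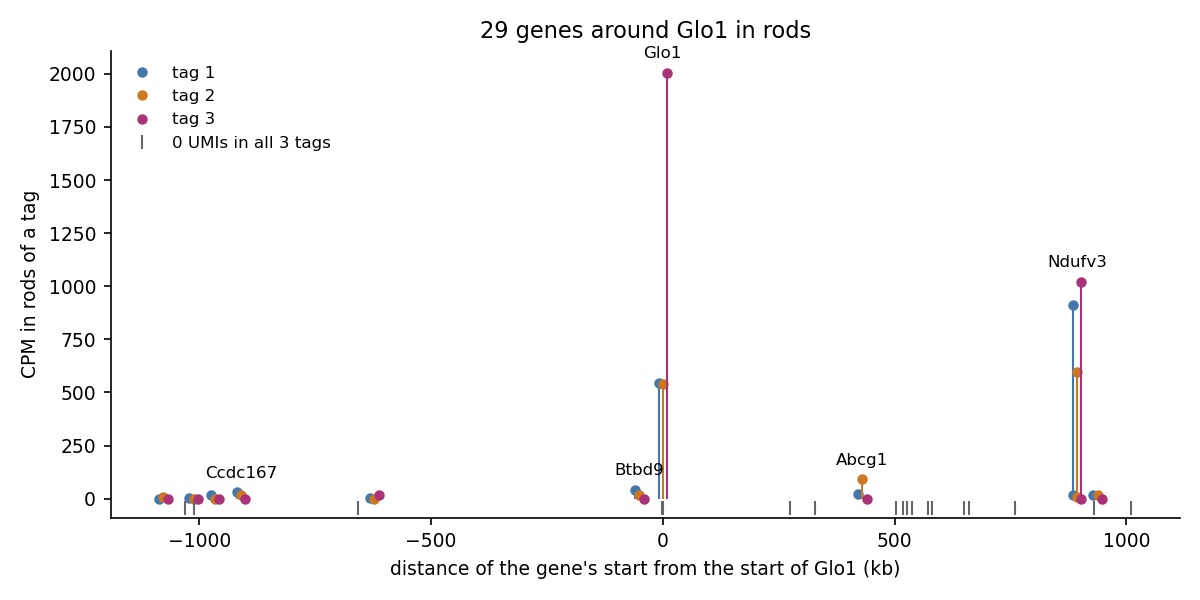
Level in rods (CPM) of the 29 genes of the matrix within 1 Mb of Glo1, placed by the distance of each gene's start from the start of Glo1; the 3 colours are the tags, set slightly apart, and grey ticks are genes with 0 UMIs in all 3 tags. Only Glo1 and Ndufv3 stand clear of the baseline, and Glo1 in tag 3 reaches 2006 CPM.

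The rest of the glyoxalase system and its surroundings gave a mixed picture. A list of 29 further genes (other glyoxalases, glycolytic sources of methylglyoxal, aldehyde detoxification, glutathione and the Cul3 ligase) had 24 members with a UMI in tagged rods. For tag 3 over tag 1, 8 of them reached 20 expected UMIs. Of these, 1 was at least 2-fold higher and 0 were 2-fold lower, where 3.28% and 8.43% of all genes were, and their median log2 ratio was 0.21 against 0.02 over all genes. For tag 3 over tag 2, 0 of 6 passed 2-fold in either direction, where 4.7% and 8.42% of all genes did, with a median of 0.38 against 0.04. For tag 2 over tag 1, 0 of 15 were higher and 3 were lower, where 3.88% and 9.38% of all genes were, with a median of -0.14 against -0.08.

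Hagh, the second glyoxalase, was found in 28.8% of rods of tag 1 and 28.6% of tag 3, and tag 3 stood at 0.33 to tag 1 on the log2 scale (-0.30 to 0.87). Tag 2 stood at -0.43 to tag 1 (-0.80 to -0.08). Park7, which encodes DJ-1, a protein with reported deglycase activity, was at 860, 1093 and 1622 CPM, and tag 3 exceeded tag 1 by 0.92 on the log2 scale (0.58 to 1.23). It was found in 54.5% of rods of tag 1 and 61.9% of tag 3. In the rods that failed the filter Park7 was at 492, 854 and 720 CPM, so tag 3 did not lead there.

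Among the glycolytic enzymes around the step where methylglyoxal forms, Gapdh had a log2 ratio of -0.09 (-0.32 to 0.13) for tag 3 over tag 1, Aldoa 0.01 (-0.20 to 0.21) and Tpi1 -0.11 (-0.68 to 0.37). Each interval includes 0. Between tags 2 and 1 Tpi1, which interconverts the triose phosphates from which methylglyoxal forms, was lower by a log2 ratio of -1.19 (-1.54 to -0.86). Akr1a1, an aldehyde reductase, was also lower, at -1.22 (-1.82 to -0.69), and so was Pnkd, whose protein resembles the second glyoxalase, at -2.17 (-3.79 to -1.05). These were the 3 list genes past 2-fold in that pair. In the rods that failed the filter Akr1a1 and Pnkd had the opposite sign, at 0.33 and 0.42.

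Gpx4, a peroxidase that uses glutathione, was found in 90.6%, 86.7% and 90.5% of rods, and tag 3 exceeded tag 1 by 0.57 on the log2 scale (0.39 to 0.74). Cul3, the scaffold to which BTB-domain proteins bind, had 192, 172 and 45 UMIs. It was the 1 list gene past 2-fold in tag 3 over tag 1, at 1.16 (0.64 to 1.62). In rods that failed the filter Cul3 had 5 UMIs in 1 of 11 rods of tag 3, and that ratio was -0.60. Rbx1, the RING subunit of the same ligases, was at 0.08 (-0.40 to 0.50). The gene for glutathione synthetase, Gss, had 0 UMIs in the tagged rods.

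**Figure D5:**
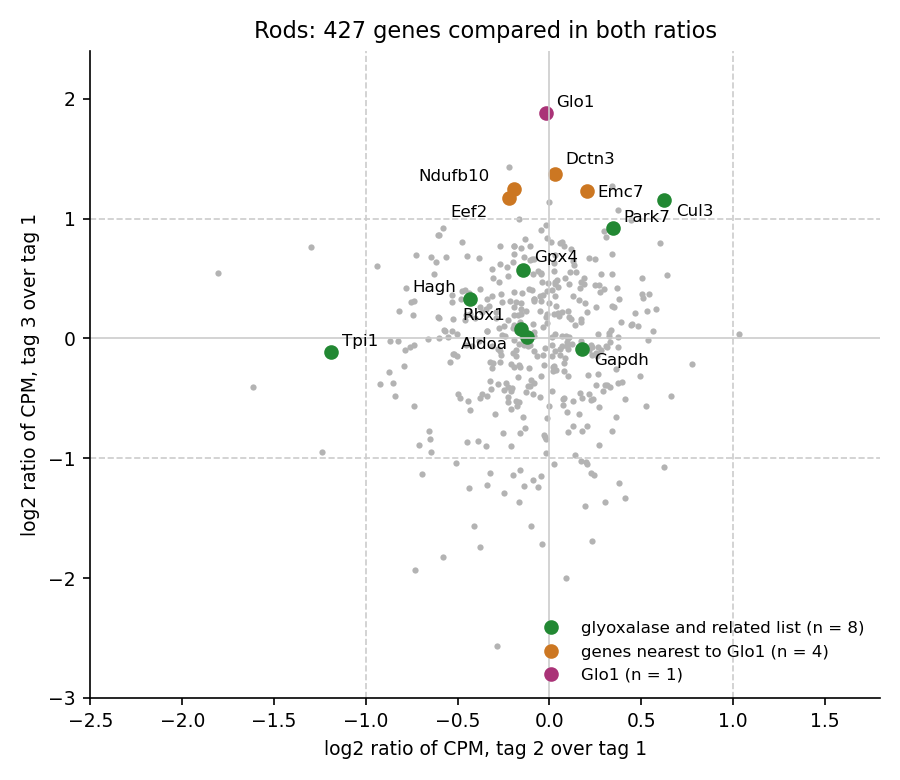
Log2 ratio of CPM in rods for tag 3 over tag 1 (vertical) against tag 2 over tag 1 (horizontal) for the 427 genes tested in both, of which 8 lie beyond the axes; dashed lines mark 2-fold, and Glo1, 4 of the genes nearest to it and the tested list genes are coloured. Glo1 lies at 1.88 and -0.02, apart from the bulk of genes around 0.

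Genes whose pattern over the tags was among the 5 most like Glo1, by distance in the log2 ratios of tags 2 and 3 over tag 1 among 412 genes, included Dctn3, Ndufb10, Emc7 and Eef2, at distances of 0.51, 0.66, 0.69 and 0.74. Their log2 ratios of tag 3 over tag 1 were 1.37, 1.24, 1.23 and 1.17, beside 1.88 for Glo1. The likeness rests on the 3 pools alone. Dctn3, a dynactin subunit, was found in 29.8% of rods of tag 1 and 38.1% of tag 3, and Ndufb10, of complex I, in 26.7% and 33.3%. Emc7, of the membrane protein complex of the endoplasmic reticulum, was found in 38.7% and 52.4%, and the elongation factor Eef2 in 27.2% and 52.4%.

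Among the rods that failed the filter these 4 genes had other values. There the 11 barcodes of tag 3 held 12 UMIs of Dctn3 in 5 barcodes, 3 of Ndufb10 in 2, 1 of Emc7 in 1 and 11 of Eef2 in 3. On the log2 scale tag 3 stood to tag 1 at 0.60 for Dctn3, -0.76 for Ndufb10, -2.61 for Emc7 and 1.08 for Eef2, beside 1.96 for Glo1.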

How the data were processed

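The series holds 1 expression library and 1 tag library from 1 pool of sorted mouse retinal cells. The deposited UMI counts of the expression library were made by the authors with Cell Ranger 6.1.2 (per the processing notes; the matrix header names 3.1.0) against mm10, and the tag call of each barcode is the authors' own. Neither holds normalized values. Cells with 200 to 2500 genes and at most 18% mitochondrial UMIs were kept (409 of 834), 29 Scrublet doublets were removed, and 380 cells were clustered with scanpy 1.11.5 (2000 variable genes, 30 components, 15 neighbours, Leiden resolution 0.5; 0.7 for all barcodes). Glo1, Btbd9, genes near them and the glyoxalase list were kept out of the clustering. The resolutions were set after finer clustering (resolution 1) had left 2 clusters of rods unnamed. Clusters were named from marker lists.

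UMIs were summed per tag, scaled to CPM and compared as log2 ratios with 0.5 UMIs added, over all genes for which 20 or more UMIs were expected in each tag of the pair. Intervals are exact at 95%, and a count of 0 was given a limit of 3 counts. Depth per rod ran from 563 to 12461 UMIs. Aldoa is on 2 rows of the matrix, and the row with UMIs was used. Named genes were the 2 members, genes within 1 Mb, the glyoxalase list and the 5 genes nearest in pattern, of which 1 is not reported here. Members and lists were chosen with earlier results of these data known. Alternatives covered the filter, doublets, cell class, tag call, depth, scaling, weighting and pseudocount, and 3 more, chosen after seeing the data, left out rods with cone or bipolar markers or used resolution 1.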

Additional observations from a re-analysis of the deposited data

Results flagged for a closer look

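Glo1 was also present in barcodes that belong to none of the 3 tags and entered no comparison. Rod-like barcodes outside the tags numbered 120, and 21 of them (17.5%, exact 95% interval 11.2 to 25.5) held 83 Glo1 UMIs in all. They are given only because they carry Glo1 outside every comparison. Their level was 431 CPM (343 to 534), below the 547 and 539 CPM of the rods of tags 1 and 2, and their median depth of 1312.5 UMIs was lower too. Of the 120, 107 failed the filter, and their median mitochondrial share was 32.1% against 10.7% and 14.3% in those rods. Rods of tags 1 and 2 that failed the filter were at 301 and 448 CPM, so the level outside the tags was not below both. Btbd9 had 0 UMIs in the 120 barcodes outside the tags. Their pool of origin is not known.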

How the results depend on the processing

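Each tag is 1 pool, so no alternative adds replicates. No paired analysis was possible because both deposited libraries come from 1 pool of cells, 1 holding its expression and 1 its tags. Over 18 alternatives the log2 ratio of Glo1 ran from 1.38 to 2.16 for tags 3 and 1, from 1.11 to 1.98 for tags 3 and 2 and from -0.09 to 0.68 for tags 2 and 1. Over 12 alternatives the share of Glo1-positive rods ran from 27.1% to 37.3%, from 27.8% to 47.8% and from 54.5% to 76.2% in tags 1, 2 and 3. Of the values that answer a comparison, 135 stayed within a set range of the main value and 33 moved outside it. Of those for other named genes, 618 stayed within it, 110 moved outside it and 21 changed sign. A change of sign was counted only where the main interval left out 0. Other ratios that crossed 0, among them Btbd9 for tags 2 and 1, were counted as within or outside the range. The range was the counting interval of the main value. For the shares of genes past 2-fold it was instead a fixed fold of the main value. The 21 rods of tag 3 set the precision, and 0 Btbd9 UMIs there leave its level undetermined below the limit given.

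In barcodes that failed the filter, Glo1 was at 0.57 for tags 2 and 1 and 1.39 for tags 3 and 2, Btbd9 was at -3.47 for tags 2 and 1, and its share in tag 1 was 9.80%. With all passing cells, which adds bipolar-like cells, Glo1 was at 1.5 for tags 3 and 2, Btbd9 at 1.24 for tags 2 and 1, and its share in tag 2 was 7.59%. With 90% of tag counts required from 1 tag, Glo1 was at 0.68 for tags 2 and 1 and 1.48 for tags 3 and 2, and its share in tag 2 was 47.8%. With 1 count per gene and cell, Glo1 was at 0.27, 1.38 and 1.11 for tags 2 and 1, 3 and 1, and 3 and 2. With median scaling it was at 1.5 for tags 3 and 2. The cause was not tested for any of these.

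The changes of sign given here are those of ratios whose main interval left out 0. Signs changed in barcodes that failed the filter for tags 2 and 1 in Hagh (0.10), Pnkd (0.42), Akr1a1 (0.33) and Gpx4 (0.27). They changed there for tags 3 and 1, and 3 and 2, in Cul3 (-0.60 and -0.85), Ndufb10 (-0.76 and -0.88) and Emc7 (-2.61 and -2.66), and for tags 3 and 2 in Park7 (-0.20). With all passing cells Pnkd was at 0.48 for tags 2 and 1. With 90% of tag counts from 1 tag, which left 3 rods of tag 3, Park7 was at -0.62 and -1.14 and Emc7 at -0.59 and -1.45 for tag 3 over tags 1 and 2, and Ndufv3 at 0.36 for tags 2 and 1. With 1 count per gene and cell, Gpx4 was at 0.15 for tags 2 and 1 and -0.010 for tags 3 and 2, Ndufv3 at -0.031 for tags 3 and 2, and Aldoa at 0.26 for tags 2 and 1. The cause was not tested.

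The share of all genes past 2-fold depended on the minimum of expected UMIs. At minimums of 10, 50 and 1, tag 2 was higher than tag 1 in 7.22%, 0.957% and 16.8% of genes and lower in 14.4%, 3.72% and 29.6%. Tag 3 was higher than tag 1 in 7.69%, 0.549% and 19.3%. At minimums of 10 and 1, tag 3 was lower than tag 1 in 14.1% and 41.7%, higher than tag 2 in 11.98% and 22.2%, and lower than tag 2 in 14.1% and 39.9%. Under median scaling tag 3 was higher than tag 1 in 1.64% and lower in 13.8%, and higher than tag 2 in 1.24% and lower in 19.6%.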
